A study of Homo sapiens with 372 samples.

Results

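The genes of fatty acid synthesis and desaturation were taken by name from a list of 9 symbols, and the 8 members analysed here, of 9664 genes in all, were *ACLY*, *ACACA*, *FASN*, *ELOVL1*, *ELOVL5*, *ELOVL6*, *SCD* and *FADS1*. *FADS2* was not analysed here. In some condition each of the 8 members was found in more than 30% of cells, a limit passed by 9655 genes, over which each difference was computed. Single A2780 cells, an established human ovarian cancer line, were captured on the Fluidigm C1 system and sequenced with Smart-seq2, which copies full-length polyA-tailed RNA. The conditions were untreated control (46 retained cells), 5 nM paclitaxel for 16 h (56 cells) and 48 h (53 cells), 75 µM celecoxib for 2 h (63 cells) and 16 h (61 cells), and 5 nM paclitaxel together with 75 µM celecoxib for 16 h (59 cells), so that 338 of 372 listed cells were used. Paclitaxel stabilizes microtubules and celecoxib inhibits cyclooxygenase-2. The labels name no replicate culture or capture run, so a condition cannot be told apart from the culture and run that its cells came from. Cells are not replicates of a treatment, so no test between conditions was made and each SD is a spread over cells.

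Expression was given as the E-value, which is log2(N/10 + 1). N stands for the normalized transcript abundance (TPM) of a gene after scaling to the most abundant spike-in RNA of that cell. This scaling keeps differences in the total RNA of a cell. The median total, on the log2 scale and relative to control, was -0.99 after 16 h and -0.64 after 48 h on paclitaxel, -0.76 after 2 h and -1.52 after 16 h on celecoxib, and 0.49 on both drugs. For the same conditions in turn, the median difference in mean E-value over all genes tested was -0.41, -0.26, -0.26, -0.48 and 0.33. Every difference was therefore also computed after rescaling each cell to the same total, where the median over all genes lay between -0.07 and 0.03 in the 5 comparisons with control and between -0.01 and 0.10 in the 4 comparisons between treatments. Genes were called up or down past a limit of log2(1.5) in the difference of mean E-values. Read numbers per cell are unknown, and a median of 6126 to 6630 genes was detected per cell in the 6 conditions. Of 9 epithelial or ovarian markers only *KRT18* was analysed, and of 11 markers of leukocytes, endothelium and fibroblasts only *LYZ* and *COL1A2*. None of these 3 was past the limit in any treatment, which does not bear on cell type. In control cells *KRT18* was detected in 23.9%, *LYZ* in 37.0% and *COL1A2* in 17.4%, with mean E-values of 0.59, 0.15 and 0.45. The share of cells was larger for *LYZ* than for *KRT18* in every condition, so these genes did not check the cell type label.

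Cells build fatty acids in the cytosol from citrate. *ACLY* encodes ATP citrate lyase, which releases acetyl-CoA from citrate, *ACACA* encodes acetyl-CoA carboxylase, which makes malonyl-CoA, and *FASN* encodes the synthase that assembles palmitate. *ELOVL6* lengthens palmitate, *ELOVL5* lengthens polyunsaturated chains, and *ELOVL1* makes very long saturated and monounsaturated chains. *SCD* introduces the delta-9 unsaturation of oleate and palmitoleate, and *FADS1* is the delta-5 desaturase of arachidonate synthesis, arachidonate being the substrate of the cyclooxygenases. Many of these genes are known targets of the SREBP transcription factors.

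The members lie on 6 chromosomes in GENCODE version 44 on hg38. *ACACA* (chr17:37084992-37406836), *ACLY* (chr17:41866917-41930542) and *FASN* (chr17:82078338-82098294) share chromosome 17, all on the minus strand. *ELOVL1* (chr1:43363398-43368074), *ELOVL6* (chr4:110045846-110199199), *ELOVL5* (chr6:53267398-53349179) and *FADS1* (chr11:61799627-61829318) are also on the minus strand, and *SCD* (chr10:100347233-100364826) is on the plus strand. Exons of *FADS1* overlap exons of *FADS2* on the opposite strand. Smart-seq2 reads do not keep the strand, so reads from that overlap cannot be told apart, and the same holds for antisense noncoding RNAs over exons of *ACLY* and *ELOVL6*. Reads shared by *SCD* and its pseudogene *SCDP1* (chr17:20784645-20785725) are uncertain in their assignment.

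RefSeq start sites (GRCh38.p14) matched 7 of the 8 members. The 250 bases before the start site are printed for *SCD*, *FADS1* and *ELOVL5*, the members past the limit upward against control in at least 1 treatment on either scale, and for *ACLY*, the member with the largest fall. Capitals mark the CCAAT box (CCAAT), the cyclic AMP response element (TGACGTCA) and the core of the sterol regulatory element (TCACNCCAC), each searched on both strands. The regions are chr10:100346983-100347232 on the plus strand, and chr11:61817004-61817253, chr6:53348951-53349200 and chr17:41919023-41919272 on the minus strand.
SCD: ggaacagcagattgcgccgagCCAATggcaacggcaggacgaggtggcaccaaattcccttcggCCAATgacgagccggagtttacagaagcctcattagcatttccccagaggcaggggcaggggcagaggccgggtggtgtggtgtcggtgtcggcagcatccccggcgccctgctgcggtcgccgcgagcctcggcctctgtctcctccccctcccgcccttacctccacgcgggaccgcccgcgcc
FADS1: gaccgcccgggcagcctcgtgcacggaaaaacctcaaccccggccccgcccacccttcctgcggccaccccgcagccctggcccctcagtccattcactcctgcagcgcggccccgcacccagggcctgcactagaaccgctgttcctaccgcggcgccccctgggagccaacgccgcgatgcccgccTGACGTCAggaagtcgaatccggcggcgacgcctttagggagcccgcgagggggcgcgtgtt
ELOVL5: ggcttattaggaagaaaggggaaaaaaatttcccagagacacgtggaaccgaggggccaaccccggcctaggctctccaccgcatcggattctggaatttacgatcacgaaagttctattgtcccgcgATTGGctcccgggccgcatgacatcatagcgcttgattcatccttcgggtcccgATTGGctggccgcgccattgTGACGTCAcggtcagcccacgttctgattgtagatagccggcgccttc
ACLY: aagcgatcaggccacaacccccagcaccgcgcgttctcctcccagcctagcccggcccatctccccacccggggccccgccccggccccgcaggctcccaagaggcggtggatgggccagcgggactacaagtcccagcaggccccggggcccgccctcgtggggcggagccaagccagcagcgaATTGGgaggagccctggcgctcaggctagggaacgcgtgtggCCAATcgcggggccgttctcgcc

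Counted back from the start site, *SCD* held CCAAT at -229 and -186, and *ACLY* held ATTGG, its reverse complement, at -65 and CCAAT at -23. RefSeq gives 2 start sites for *ACLY*, of which the first listed was used, and counted from the other these letters lie at -136 and -94. *ELOVL5* held ATTGG at -122 and -68 and TGACGTCA at -48. *FADS1* held TGACGTCA at -62 and no CCAAT. The CCAAT box occurs in 32.0% and TGACGTCA in 1.65% of 35116 promoters of this length. TCACNCCAC, present in 0.883% of them, was not found in the windows of the 7 members. The GC box (GGGCGG) and the E-box (CACGTG), in 42.6% and 6.34% of promoters, were also searched but are not marked. GC boxes on either strand lay at -33 and -11 in *SCD*, -248 and -205 in *FADS1*, and -174, -99 and -88 in *ACLY*. *ELOVL5* held an E-box at -211. The median GC content was 73% over the 10 windows of the members and 58% over all promoters. These matches describe the letters only. The motifs to mark were chosen after the promoters had been read.

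In untreated cells the members were compared on the scale of normalized TPM, which allows comparison between genes of different length. *ACACA* had the highest mean level with 79.2, followed by *ELOVL5* (50.3), *FADS1* (46.1), *ACLY* (34.3), *ELOVL6* (31.2), *ELOVL1* (23.6), *SCD* (18.6) and *FASN* (7.78). On the same scale the medians were 44.7 for *ACACA*, 37.4 for *FADS1*, 36.7 for *ELOVL5*, 31.4 for *ACLY*, 24.4 for *ELOVL6*, 13.7 for *SCD*, 4.76 for *FASN* and 0 for *ELOVL1*. The order of neighbours is not resolved, since the E-values of control cells ranged from 0 to 5.51 for *ACACA*, from 0 to 4.21 for *ELOVL5* and from 0 to 2.35 for *FASN*. *ELOVL1* stood apart in its distribution, with an E-value above 0 in 16 of 46 control cells (34.8%, exact Clopper-Pearson 95% interval 21.4 to 50.2%, counting error only). The other 7 members were detected in 78.3 to 91.3% of control cells. *ELOVL1* passed the limit of 30% of cells in control and, with 42.4%, on both drugs, but in no single-drug condition. Its shares there were 19.6% and 24.5% on paclitaxel and 23.8% and 19.7% on celecoxib. It was thus kept through the conditions where it was highest, which favours lower values in the others.

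**Figure D1:**
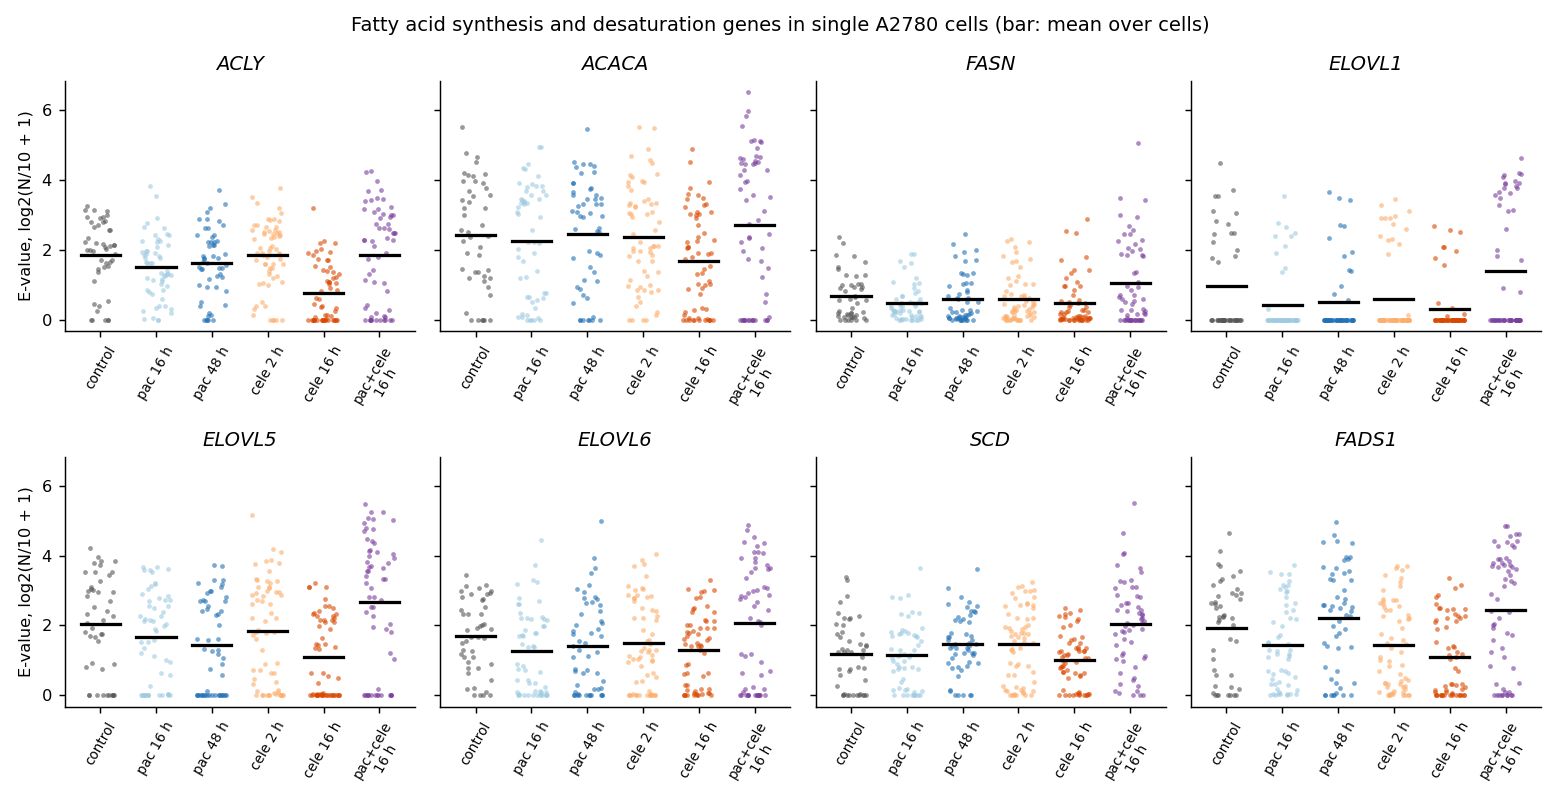
E-values of the 8 members (vertical axis, log2 scale) in each retained cell (points) of the 6 conditions (horizontal axis), with the mean over cells as a black bar; pac is paclitaxel and cele is celecoxib. *ACLY* at 16 h of celecoxib has a mean of 0.77 against 1.86 in control, and *ELOVL1* is at 0 in most cells of every condition.

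Paclitaxel for 16 h left all 8 members within the limit. The mean E-values of all 8 were below control, with differences from -0.04 for *SCD* to -0.54 for *ELOVL1* and a median of -0.36, beside -0.41 over all genes. None of the members was counted as down, against 37.3% of all genes tested, and none as up, against 0.0932%. With each cell at the same total the counts were again 0 of 8, beside 1.40% of all genes up and 10.0% down. On that scale *SCD* stood at 0.41 and *ACACA* at 0.34 above control, while *ELOVL1* stood at -0.40.

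Paclitaxel for 48 h gave higher values for both desaturases than 16 h. The E-value of *SCD*, whose product makes monounsaturated fatty acids, ranged from 0 to 3.39 with a median of 1.25 in control cells, from 0 to 3.64 with a median of 1.11 at 16 h, and from 0 to 3.61 with a median of 1.42 at 48 h. The delta-5 desaturase *FADS1* ranged from 0 to 4.65 with a median of 2.25 in control cells, from 0 to 3.73 with a median of 1.23 at 16 h, and from 0 to 4.95 with a median of 2.44 at 48 h. The cells of the 3 conditions overlapped over nearly their whole range for both genes. The mean of *FADS1* was 1.93 ± 1.35 (SD over 46 cells) in control, 1.45 ± 1.20 (56 cells) at 16 h and 2.22 ± 1.48 (53 cells) at 48 h. *FADS1* was the only member past the limit between the 2 times, 0.78 higher at 48 h than at 16 h, where 7.89% of all genes were up and 0.352% down. Rescaled, this difference was 0.68, beside 6.18% of all genes up and 1.18% down. The 48 h cells came from 2 blocks of 96 library indices, and the difference was 1.29 for the cells of block 4 and 0.05 for those of block 2, or 1.14 and 0.04 at the same total.

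Against control, 1 member was down at 48 h of paclitaxel, *ELOVL5* at -0.60, beside 26.6% of all genes, and no member was up, beside 0.922%. *ELOVL5* was detected in 34 of 53 cells (64.2%, interval 49.8 to 76.9%) and in 36 of 46 control cells (78.3%, interval 63.6 to 89.1%). After rescaling to the same total 2 members were up, *SCD* at 0.65 and *FADS1* at 0.60, beside 3.28% of all genes, and 0 were down, beside 5.78%. *FADS1* lay just past the limit of 0.585. *SCD* was detected in 48 of 53 cells at 48 h (90.6%, interval 79.3 to 96.9%) and in 36 of 46 control cells (78.3%, interval 63.6 to 89.1%). The study itself named *ACACA* and *SCD* among the lipid metabolism genes it chose as activated in the control-like cells at 48 h. It also listed *SCD* and *FADS1* among its paclitaxel-activated genes of oxidation-reduction. The direction of *ACACA*, *SCD* and *FADS1* in those cells is therefore not independent evidence.

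Against control too, the 2 desaturases differed in how far their values depended on the block. All control cells carried indices of block 4, the cells at 16 h those of block 1, and the 48 h cells those of block 2 (22 cells) and block 4 (31 cells). In the block 4 cells *FADS1* ranged from 0 to 4.95 with a median of 2.81, and in the block 2 cells from 0 to 3.95 with a median of 1.39. Its mean differed from control by 0.80 in block 4 and by -0.44 in block 2, and at the same total by 1.06 and -0.04. *SCD* differed from control by 0.38 in block 4 and 0.19 in block 2, and at the same total by 0.66 and 0.64. The height of *FADS1* over control was thus seen in the block 4 cells, while *SCD* was above control in both, by like amounts only at the same total.

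*ACACA* and *ELOVL5* split by block in the same direction as *FADS1*. The difference from control of *ACACA* was 0.42 in block 4 and -0.51 in block 2, or 0.77 and -0.10 at the same total. *ELOVL5* was at -0.24 in block 4 and at -1.11 in block 2, where it was detected in 11 of 22 cells. Rescaled, its values were 0.08 and -0.74, so that the lower *ELOVL5* level at 48 h was that of the block 2 cells. The median total of the cells relative to control was -0.59 in block 4 and -0.84 in block 2. What the blocks stand for is not stated, and whether they were separate cultures, plates or sequencing pools was not tested.

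**Figure D2:**
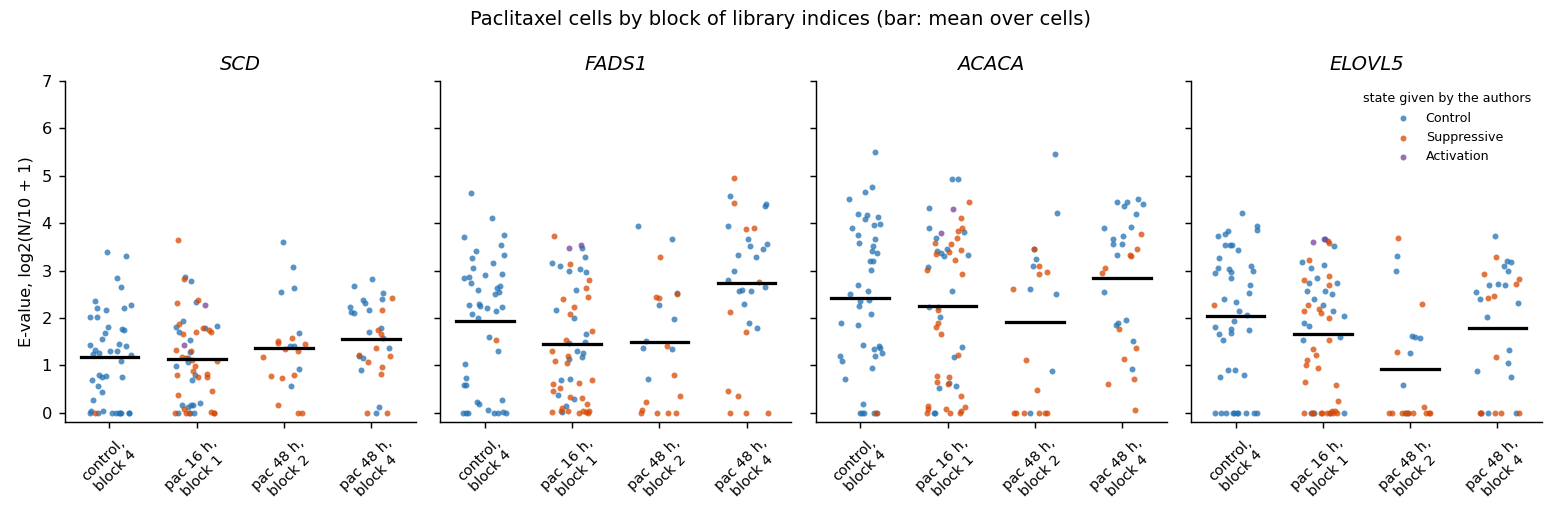
E-values of *SCD*, *FADS1*, *ACACA* and *ELOVL5* (vertical axis, log2 scale) in single cells (points) of control and paclitaxel conditions, split by block of library indices (horizontal axis) and coloured by the deposited state of each cell, with the mean as a black bar. *FADS1* has a median of 2.81 in the block 4 cells and 1.39 in the block 2 cells at 48 h, while *SCD* has medians of 1.67 and 1.38.

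The authors assigned each cell a state, called control, suppressive or activation, with a model trained on these E-values, and 28 of the 53 cells at 48 h were given the control state and 25 the suppressive state. The values by state are therefore a description. *ACACA* averaged 3.15 in the control-state cells and 1.69 in the suppressive cells, *FADS1* 2.85 and 1.52, *ELOVL5* 1.81 and 1.01, and *SCD* 1.84 and 1.08. These gaps of 1.46, 1.32, 0.80 and 0.76 and the gap of 0.59 for *ACLY* lay above that of 0.38 in the median gene. At the same total the 5 gaps were 1.03, 0.91, 0.46, 0.34 and 0.19. The gaps of *ELOVL6* (0.33) and *FASN* (0.19) lay below it. *FADS1* was detected in 28 of 28 control-state cells and 18 of 25 suppressive cells. *ELOVL1* went the other way, with 0.39 in the control-state and 0.65 in the suppressive cells. It was detected in only 7 of 28 and 6 of 25 of these cells, with a median of 0 in both.

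State and block were not evenly crossed, since 19 of 31 cells in block 4 and 9 of 22 in block 2 had the control state. Among control-state cells *FADS1* averaged 3.17 in block 4 and 2.15 in block 2, and among suppressive cells 2.05 and 1.04. Its level was thus lower in block 2 within each state. *SCD* averaged 1.77 and 1.99 among control-state cells and 1.22 and 0.95 among suppressive cells, which gave no such order.

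Celecoxib for 2 h left all 8 members within the limit, beside 1.12% of all genes up and 25.7% down. All 63 cells carried indices of block 2 and the control cells those of block 4, so treatment and block cannot be told apart. *SCD* was the only member with a mean above control, by 0.28 (1.46 ± 1.05 SD over 63 cells against 1.18 ± 0.97 over 46 cells), and it was detected in 59 of 63 cells (93.7%, interval 84.5 to 98.2%). The other 7 differences ranged from -0.02 for *ACLY* to -0.49 for *FADS1*. On the rescaled values 0 of 8 members were up or down, beside 3.31% and 8.12% of all genes, with *SCD* at 0.57, just inside the limit. By the authors' states *ACLY* averaged 2.46 in the 26 control-state cells, all of which had the transcript, and 1.34 in the 33 suppressive cells, where 29 had it. This gap of 1.12 was the largest of the members, beside 0.35 in the median gene, and was 0.69 at the same total. *ACACA* went the other way, with 2.18 in the control-state and 2.46 in the suppressive cells, a gap of -0.74 at the same total.

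Celecoxib for 16 h gave the lowest mean of 6 of the 8 members among the 6 conditions. The citrate lyase *ACLY* ranged from 0 to 3.24 with a median of 2.05 in control cells, from 0 to 3.77 with a median of 1.91 at 2 h, and from 0 to 3.20 with a median of 0.44 at 16 h. Of the 61 cells at 16 h, 4 lay above the control median. Control cells carried indices of block 4, the 2 h cells those of block 2 and the 16 h cells those of block 3. Time on celecoxib and block therefore cannot be told apart. The mean of *ACLY* was 1.86 ± 1.00 (SD) in control, 1.84 ± 0.96 at 2 h and 0.77 ± 0.82 at 16 h. It differed from control by -0.02 at 2 h and by -1.09 at 16 h. *ACLY* was detected in 40 of 61 cells (65.6%, interval 52.3 to 77.3%) and in 41 of 46 control cells (89.1%, interval 76.4 to 96.4%). Of the 40 pairs of a member and a treatment this was the only one whose difference from control was larger than the SD over control cells.

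Besides *ACLY*, 4 members were past the limit downward after 16 h on celecoxib. *ELOVL5* differed from control by -0.94, *FADS1* by -0.83, *ACACA* by -0.74 and *ELOVL1* by -0.65. With *ACLY* these were 5 of 8 members, beside 43.9% of all genes tested, and no member was up, beside 0.383%. *ELOVL1* is among them, and its call is favoured by the detection limit, which it passed only in control and on both drugs. *ELOVL6*, *FASN* and *SCD* were within the limit at -0.40, -0.20 and -0.16. The median of the members was -0.70 and that of all genes -0.48.

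Rescaled to the same total, none of these 5 members stayed past the limit at 16 h of celecoxib, beside 7.95% of all genes down and 7.37% up. *ACLY* was at -0.40, *ELOVL1* at -0.41, *ELOVL5* at -0.25 and *FADS1* at -0.17, while *ACACA* was above control at 0.13. *SCD* stood highest at 0.58, just under the limit. Between 2 and 16 h of celecoxib, *ACLY* (-1.07), *ELOVL5* (-0.75) and *ACACA* (-0.69) were down, beside 19.4% of all genes, and none was up, beside 0.528%. On the rescaled values *ACLY* alone was past the limit between these times, at -0.77, beside 3.90% of all genes down and 7.88% up.

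With the combination of paclitaxel and celecoxib the means of 7 of the 8 members lay above control. *SCD* ranged from 0 to 5.49 with a median of 2.07, compared with 0 to 3.39 and a median of 1.25 in control, and 41 of 59 cells lay above the control median. It was detected in 56 of 59 cells (94.9%, interval 85.9 to 98.9%). *ELOVL5* ranged from 0 to 5.46 with a median of 3.22, compared with 0 to 4.21 and a median of 2.22. Only these 2 members were past the limit, *SCD* at 0.85 (2.03 ± 1.25 SD over 59 cells) and *ELOVL5* at 0.65 (2.68 ± 1.85), beside 30.4% of all genes up. No member was down, beside 1.76%.

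*ACLY* was the exception among the members, at -0.01 against control (1.85 ± 1.39 SD), while *FADS1* was at 0.52, *ELOVL1* at 0.43, *ELOVL6* at 0.36, *FASN* at 0.36 and *ACACA* at 0.27. Rescaled to the same total, 0 of 8 members were up or down with the combination, beside 5.96% and 5.80% of all genes, and *SCD* remained highest at 0.42. The difference of *ELOVL5* depended on the index block, with 0.94 in the 34 cells of block 1 and 0.24 in the 25 cells of block 3. That of *SCD* was 0.85 and 0.84.

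As deposited, the combination cells also differed from each other more than control cells did. The SD over cells was larger than in control for 8 of 8 members and for 93.2% of all genes. In the other 4 treatments it was larger for 1 to 4 members, beside 23.1 to 50.9% of all genes. Rescaled, the SD was larger for 8 members and 77.3% of all genes, but also for 7 members in each of the other 4 treatments, where 73.1 to 88.9% of all genes had a larger SD. The share of cells with an E-value above 0 was lower than in control for 6 members, of which 5 had a mean above control, and for *ELOVL5* (76.3 and 78.3%) and *FADS1* (84.7 and 87.0%) the shares lay close together. *FASN* was detected in 42 of 59 cells (71.2%, interval 57.9 to 82.2%) and in 40 of 46 control cells (87.0%, interval 73.7 to 95.1%). *ELOVL6* was detected in 76.3% and 91.3% of cells and *ACACA* in 74.6% and 87.0%. *SCD* and *ELOVL1* were the 2 members detected in more cells than in control, as were 34.2% of all genes.

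Compared with paclitaxel alone for 16 h, the combination gave higher means for all 8 members, and 5 were past the limit: *FADS1* (1.01), *ELOVL5* (1.01), *ELOVL1* (0.97), *SCD* (0.89) and *ELOVL6* (0.81). Of all genes, 62.5% were up and 0.0311% down in that comparison. Compared with celecoxib alone for 16 h, all members but *FASN* were past the limit upward, from 0.76 for *ELOVL6* to 1.59 for *ELOVL5*, beside 66.0% of all genes up and 0.0414% down. Rescaled, no member was past the limit in either comparison, beside 9.57% of all genes up and 1.64% down against paclitaxel and 5.03% up and 4.39% down against celecoxib. *ELOVL1*, at 0.52 and 0.53, had the largest difference upward in both. The detection limit favours this, since *ELOVL1* passed it with the combination but with neither drug alone.

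**Figure D3:**
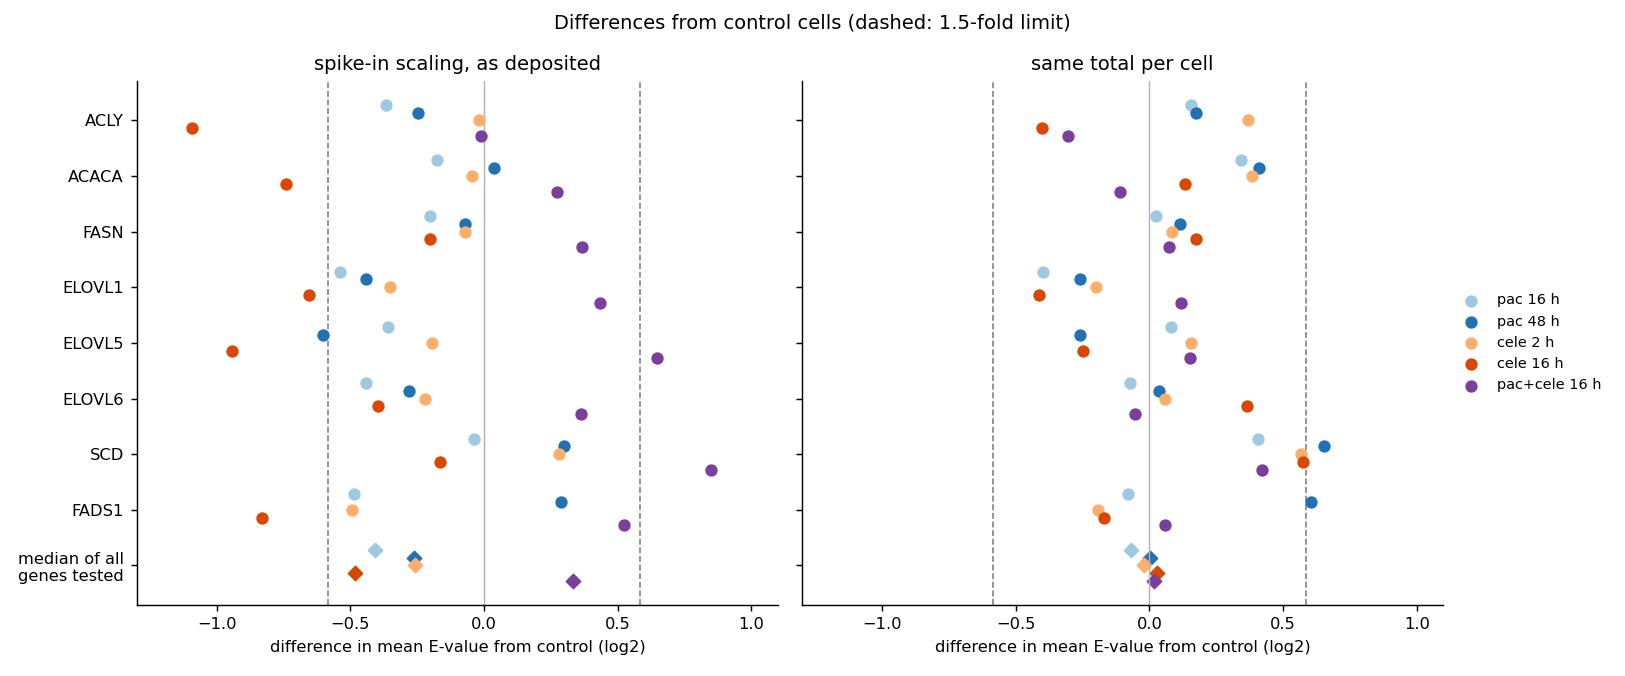
Difference in mean E-value from control (horizontal axis, log2) of each member (vertical axis) in the 5 treatments (colours), as deposited on the left and after rescaling every cell to 1 total on the right; diamonds give the median of all 9655 genes and dashed lines the limit of 0.585. At the same total *SCD* lies above control in all 5 treatments and only *SCD* and *FADS1*, at 48 h of paclitaxel, pass the limit.

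Read across treatments, *SCD* was the member that stood most evenly above control once every cell had the same total, with 0.41 and 0.65 at the earlier and later paclitaxel times, 0.57 and 0.58 at those of celecoxib, and 0.42 on both drugs. All 5 differences share the same control cells and are not independent of each other. *FASN* had the narrowest range, between 0.02 and 0.17 on that scale, at the lowest control level of the 8. Its control mean there was 0.50, below the limit of 0.585, so *FASN* could not be called down. The narrow range therefore does not show a stable level. As ppm of the total *FASN* was 5.13 in control and 8.47 on both drugs. At the earlier and later times it was 5.24 and 7.37 on paclitaxel, and 6.99 and 10.69 on celecoxib. Its ratio of linear means to control, as deposited, ran from 0.62 at 16 h of paclitaxel to 2.79 on both drugs. The median normalized TPM was 4.94 on both drugs and 4.76 in control, so the 2.79 came from the cells with the higher values. *ELOVL1* was below control in the 4 single-drug conditions, between -0.20 and -0.41. It passed the detection limit only in control and on both drugs, which favours lower values in these conditions.

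From cell to cell the members showed at most weak correlations with each other. At the same total and after the mean of each condition was removed, Spearman's rho between members over 338 cells ranged from -0.12 to 0.15 in 28 pairs with a median of 0.05. Before rescaling, the rho of a member with the total of the cell within a condition ranged from -0.02 to 0.58 with a median of 0.28. The 3 genes nearest to each member among 8719 genes had rho between 0.19 and 0.29, values too weak in such sparse data to count as a finding. They were *EIF3B*, *STRA13* and *ZFP62* for *ACLY*, *IREB2*, *SDE2* and *MTA3* for *ACACA*, and *F12*, *MATK* and *DCAF17* for *FASN*. For the elongases they were *LZTFL1*, *ZNF221* and *DGKH* (*ELOVL1*), *PARP2*, *DSN1* and *CENPE* (*ELOVL5*), and *ARHGDIG*, *VAMP8* and *OSTC* (*ELOVL6*). For the desaturases they included *AMD1* and *NBPF19* (*SCD*) and *ITGAV*, *CDC42EP5* and *EXOSC8* (*FADS1*).

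Lists of neighbouring steps were examined to place the members in their pathway, and some lists hold members themselves. Their counts stand beside the shares of all genes given above, which as deposited were 37.3% and 26.6% down in the paclitaxel conditions, 25.7% and 43.9% down in the celecoxib conditions, and 30.4% up with the combination. In the supply of acetyl-CoA and NADPH, which includes *ACLY*, 11 of 14 genes were down at 16 h of celecoxib, and 4 of them also at the same total. These 4 were *PDHA1* (-2.40), a subunit of pyruvate dehydrogenase, *TALDO1* (-1.96), the transaldolase of the pentose phosphate pathway, *ME2* (-1.77), the mitochondrial malic enzyme, and *CS* (-1.72), citrate synthase. The same list had 10 genes down at 16 h of paclitaxel, with *PGD* (-1.39), which yields NADPH, and the mitochondrial citrate carrier *SLC25A1* (-1.33) down on both scales, and 6 at 48 h, with *PDHA1* at -1.25. At 2 h of celecoxib 5 were down, with *PGD* (-1.31) and *ME2* (-1.28) on both scales. With the combination 8 of 14 were up, and *IDH1*, the cytosolic isocitrate dehydrogenase that yields NADPH, was up by 1.70 and by 1.00 at the same total.

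Fatty acid oxidation, the opposing route, was counted beside the members with the combination. Of its 24 genes tested 15 were up, and 6 of these at the same total, with *CPT1C* (1.61), a carnitine palmitoyltransferase isoform, *ECI1* (1.60), an enoyl-CoA isomerase, *HADHA* (1.53), a subunit of the trifunctional protein, and *ETFA* (1.31), a subunit of the electron transfer flavoprotein. In the same comparison the backgrounds were the 30.4% and 5.96% given above. *CPT1C* was also up on both scales at 48 h of paclitaxel (0.67) and 2 h of celecoxib (0.83). At 16 h of celecoxib 15 of the 24 genes were down, *ECI2* (-2.05) and *ACAA2* (-1.77) on both scales, and at 16 h of paclitaxel 6 were down, none at the same total.

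Among the listed partners of the desaturases are genes of the electron donor cytochrome b5, and no single one was down on both scales in every single-drug condition. *CYB5A* was so in both paclitaxel conditions (-1.28 at 16 h, -1.46 at 48 h) and after 2 h of celecoxib (-1.37). At 16 h of celecoxib it was *CYB5B*, the outer mitochondrial membrane form (-2.00). *CYB5A* was not past the limit on both scales there or with the combination. *DEGS1*, the desaturase of ceramide synthesis, was down at 16 h of paclitaxel (-1.48). Of the 10 genes of this list 5, 3, 4 and 5 were down in the 4 single-drug conditions, beside 37.3%, 26.6%, 25.7% and 43.9% of all genes. With the combination 3 were up, beside 30.4%. At the same total 2, 1, 1 and 1 were down in the single-drug conditions, beside 10.0%, 5.78%, 8.12% and 7.95% of all genes. On that scale 2 were up at 48 h of paclitaxel, beside 3.28%. In the elongation cycle up to 4 of 9 genes were down in the single-drug conditions and 5 were up with the combination, and none was past the limit at the same total. Of 6 genes that act on malonyl-CoA or with fatty acid synthase, *ACACA* and *FASN* included, 2 were down at 16 h of celecoxib and none was past the limit on both scales in any treatment.

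In the list of fatty acid activation, binding and uptake 8 of 16 genes were down at 16 h of celecoxib, beside 43.9% of all genes, and 5 of these at the same total, beside 7.95%, among them *DBI* (-2.16), the acyl-CoA binding protein, *FABP5* (-2.06), a fatty acid binding protein, *ACOT7* (-1.99), an acyl-CoA thioesterase, and *SLC27A5* (-1.66), an acyl-CoA synthetase. *SLC27A5* (-1.37) and *FABP5* (-0.92) were down on both scales at 2 h too, and with the combination the thioesterase *ACOT8* was up at 1.39. In mitochondrial fatty acid synthesis 3, 2, 3 and 6 of 10 genes were down in the single-drug conditions, beside the same 4 shares of all genes, and 6 were up with the combination, beside 30.4%. There *NDUFAB1*, the acyl carrier protein, was down at 16 h of celecoxib (-2.31), *MECR* was down at 16 h of paclitaxel (-1.19), *HSD17B8* was up at 48 h (0.69), and *OXSM* (1.16) and *LIAS* (1.08) were up with the combination, each on both scales.

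**Figure D4:**
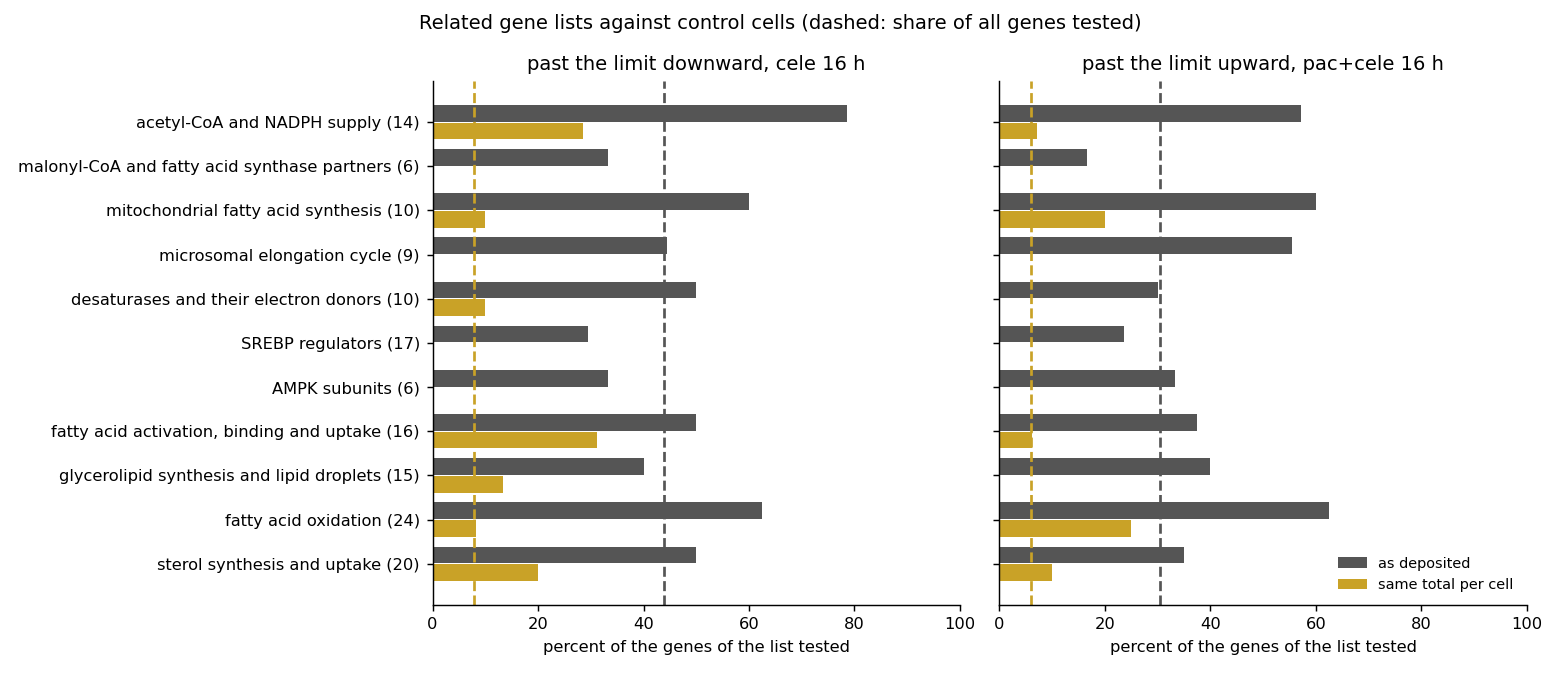
Percent of the genes of each list (vertical axis, number tested in brackets) past the limit downward at 16 h of celecoxib on the left and upward with the combination on the right, as deposited (grey) and at the same total (yellow), with the share of all genes tested as dashed lines. In fatty acid oxidation 15 of 24 genes are up with the combination and 6 of them at the same total, while the elongation cycle has none at the same total.

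Of 17 SREBP regulators tested, 6 were down at 16 h of paclitaxel, beside 37.3% of all genes, and 3 at the same total, beside 10.0%. Among these 3 were *MLX* (-1.23), a partner of the carbohydrate response factor, and the ubiquitin ligase *RNF139* (-1.03). No gene of this list was past the limit on both scales in the other 4 treatments. With the combination 4 were up as deposited, beside 30.4%, among them *SREBF1* (0.63) and *SREBF2* (0.61). At the same total these 2 were at 0.26 and 0.33, within the limit. Of 6 AMPK subunits, AMPK being the kinase that inhibits acetyl-CoA carboxylase, *PRKAB1* was down at 16 h of paclitaxel (-1.06) and none was down on both scales elsewhere. In sterol synthesis, the other SREBP-controlled route, *ACAT2*, the cytosolic acetoacetyl-CoA thiolase, was down on both scales in all 5 treatments, from -0.88 with the combination to -2.69 at 16 h of celecoxib. There 10 of 20 sterol genes were down, beside 43.9% of all genes, with *FDPS* at -2.25 and *IDI1* at -2.04, and with the combination 7 were up, beside 30.4%, with *MSMO1* at 1.58. Of 15 glycerolipid and lipid droplet genes 4, 4, 4 and 6 were down in the single-drug conditions, beside 37.3%, 26.6%, 25.7% and 43.9% of all genes, and 6 were up with the combination, beside 30.4%, and *HILPDA*, a lipid droplet protein, was down on both scales after 16 h of paclitaxel (-1.11) and in both celecoxib conditions (-1.49 and -1.40).

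Beside *FADS1* on chromosome 11, 3 neighbouring genes were tested. *FEN1*, a flap endonuclease of DNA replication, was down on both scales in 4 treatments, with differences of -1.29 and -1.35 in the paclitaxel conditions, -1.09 after 2 h of celecoxib and -1.11 on both drugs. *FADS1* was within the limit on the deposited scale in these 4 conditions.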

How the data were processed

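Reads had been trimmed by the authors (Trim Galore) and aligned by Bowtie2 within RSEM 1.3.0, which gave TPM for hg38 transcripts of GENCODE version 28 plus 3 spike-in sequences. They divided each TPM by the relative level of the highest spike-in RNA, and removed cells with poorly detected housekeeping genes and genes detected in no more than 30% of the cells of every condition. The deposited values are E-values on a log2 scale to 3 decimals. Rounding and RSEM fractions mean that an E-value slightly above 0 counts as detected.

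Groups, doses and times came from the labels and index blocks from the library names. Normalized TPM was recovered as 10 times 2 to the power of E, less 10. Differences in mean E-value were taken with the limit of log2(1.5), and each cell was also rescaled to the median total. Doublets were not called, as no counts were used. All differences from control share the 46 control cells. The members, lists and alternatives were chosen with earlier results of these data known. Named genes of a list are at most 4 with the largest differences past the limit on both scales, and some genes that meet the naming rules are not reported here. The steps were tested on resampled control cells with changes well beyond the limit. Those were put into genes above a mean level that *FASN* and *ELOVL1* did not reach in control. That test does not show how differences near the limit are called. Promoters are from RefSeq and gene positions from GENCODE version 44. Computations used numpy 2.4.6 and pandas 2.3.3 in Python 3.11.15, with scipy 1.17.1 for intervals and matplotlib 3.10.9 for plots.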

Additional observations from a re-analysis of the deposited data

How the results depend on the processing

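No paired analysis was possible because the results come from no test and the labels name no replicate culture. At the same total per cell the members counted as up at 48 h of paclitaxel went from 0 to 2 and those down from 1 to 0, those down at 16 h of celecoxib from 5 to 0, and those up with the combination from 2 to 0. Against paclitaxel and celecoxib alone for 16 h, the members up with the combination went from 5 and 7 to 0, and those down between 2 and 16 h of celecoxib from 3 to 1. The sign of a difference changed between the scales in 19 of 40 pairs of a member and a treatment against control and in 10 of 32 between treatments. Among members past the limit as deposited it changed for *ACACA* at 16 h of celecoxib (0.13) and, between the combination and celecoxib for 16 h, for *ACACA* (-0.25), *ELOVL6* (-0.42) and *SCD* (-0.16). Rescaling removes differences in the total by its construction, and which scale is nearer to the RNA content of a cell was not tested. With a ratio of linear means 3 members were down after 16 h and 2 after 48 h on paclitaxel, 2 were down after 2 h on celecoxib, and 7 were up with the combination. With median E-values 2 were down after 16 h on paclitaxel, 1 was down after 2 h on celecoxib, and 4 were up with the combination. With the pseudocount lowered from 10 to 1 normalized TPM, 3 were down in each paclitaxel condition and after 2 h of celecoxib, 1 was up after 48 h of paclitaxel, 7 were down after 16 h of celecoxib, with *FASN* at -0.67 and *ELOVL6* at -0.78 added, and 4 were up with the combination. For these 3 settings the cause was not tested.

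In index block 4 alone 1 member was up and 0 were down at 48 h of paclitaxel, and with the combination 1 was up in block 3 alone and 3 in block 1 alone. The alternatives of a block at the same total, and without the cell of highest total, were chosen after seeing the data. At the same total, 48 h of paclitaxel had 3 members up and 0 down in block 4, with *ELOVL5* reversed at 0.084, and 1 up and 1 down (*ELOVL5* at -0.74) in block 2. Between 16 and 48 h of paclitaxel, also chosen after seeing the data, 2 members were up and 0 down in block 4, and 0 up and 1 down in block 2 on either scale, with *ELOVL5* at -0.75 and, rescaled, -0.83. In block 4 at the same total 1 was up. On that scale the combination had 0 up in blocks 1 and 3, with *ELOVL5* reversed at -0.15 in block 3. The counts of members past the limit against control were unchanged without the cell of highest total. All 8 members passed the detection limit, so leaving that limit out could not change their counts. A detection limit of 50% left out *ELOVL1*, so that 4 members were down after 16 h on celecoxib, and changed no other count against control. Read numbers per cell are unknown, which limits what an undetected transcript means, and with no replicate culture named there is no error between cultures.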
